A study of Mus musculus with 20 samples.

Results

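The genes examined here encode the subunits, activators and assembly chaperones of the proteasome in mouse skin during UV-induced carcinogenesis. They were chosen by name: each gene whose symbol begins with Psma, Psmb, Psmc, Psmd or Psme and a digit, without pseudogene names and without Psmb8, Psmb9 and Psmb10, which gave 42 of the 22090 genes of the count table. RNA-seq was available for 8 normal skin (NS), 8 actinic keratosis (AK) and 4 cutaneous squamous cell carcinoma (cSCC) tissues of hairless SKH-1 mice, all female and 7 months old when they were divided into arms, weeks of irradiation before the tissues were taken, and no allele or transgene is named in the labels. The 8 mice formed an ultraviolet-free arm and an irradiated arm of 4 mice each. The AK and cSCC tissues came from the irradiated arm, and the NS tissues came from both arms. The labels do not say which NS tissue was irradiated or which tissues share a mouse. The 8 AK therefore stand for 4 mice, 2 tissues each, and the tests treat tissues as independent, so the p-values measure the spread between tissues and may be too small. Each sample is named by its group and the tissue number in its label.

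The proteasome is the main protease of the cytosol and nucleus, and it degrades proteins tagged with chains of ubiquitin. Its 20S core is a barrel of alpha and beta subunit rings, with the catalytic sites on beta subunits inside. The 19S particle caps the core: its base holds a ring of ATPases that unfold substrates and large scaffold and ubiquitin-binding subunits, and its lid holds the enzyme that removes ubiquitin. Other activators can cap the core in place of the 19S particle, and interferon exchanges the catalytic subunits for those of the immunoproteasome. In mammalian cells a shortage of proteasome activity raises transcription of the subunit genes through the factor Nfe2l1, which binds an antioxidant response element, and the related factor Nfe2l2 binds the same kind of element.

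By role, the 42 genes were 8 of the alpha ring, 8 of the beta ring, 6 ATPases of the base, 3 other subunits of the base, 8 of the lid, 3 assembly chaperones and 5 activators. The last was Psmc3ip, a partner of meiotic recombinases that is no proteasome subunit and was taken in by its name. Counts were seen in every sample for 40 of the 42 genes, and the same 40 entered the tests. The exceptions were Psma8, a testis form of an alpha subunit, and Psmb11, the beta subunit of the thymus. Psma8 had its highest level, 2.02 CPM (counts per library total scaled by TMM factors), in AK 10, and its median was 0 CPM in AK. Psmb11 had 1 count in NS 9 and none in the other samples.

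Promoter sequences are shown for Psmd1 and Psme3, the genes that rose in cSCC in both comparisons with the smallest adjusted p, and for the genes with the element near the start among those described below. They are RefSeq windows on GRCm38.p6 from 250 bases before to 50 bases after a start of transcription, written 5′ to 3′ along the gene. Capitals mark the core of the antioxidant response element, TGACNNNGC, on either strand.
Psmd1 (chr1:86064369-86064668, plus strand): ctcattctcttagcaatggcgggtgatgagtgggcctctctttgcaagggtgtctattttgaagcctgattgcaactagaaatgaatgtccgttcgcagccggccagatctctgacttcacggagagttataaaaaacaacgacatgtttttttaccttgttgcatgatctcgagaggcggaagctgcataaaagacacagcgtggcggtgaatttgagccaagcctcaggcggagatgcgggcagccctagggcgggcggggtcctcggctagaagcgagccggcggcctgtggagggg
Psme3 (chr11:101315963-101316262, plus strand): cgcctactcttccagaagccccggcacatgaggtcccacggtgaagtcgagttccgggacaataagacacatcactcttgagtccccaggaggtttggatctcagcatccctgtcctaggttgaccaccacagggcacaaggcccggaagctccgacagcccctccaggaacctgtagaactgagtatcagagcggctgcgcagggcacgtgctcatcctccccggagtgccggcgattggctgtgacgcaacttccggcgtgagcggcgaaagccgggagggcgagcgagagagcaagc
Psmd9 (chr5:123227940-123228239, plus strand): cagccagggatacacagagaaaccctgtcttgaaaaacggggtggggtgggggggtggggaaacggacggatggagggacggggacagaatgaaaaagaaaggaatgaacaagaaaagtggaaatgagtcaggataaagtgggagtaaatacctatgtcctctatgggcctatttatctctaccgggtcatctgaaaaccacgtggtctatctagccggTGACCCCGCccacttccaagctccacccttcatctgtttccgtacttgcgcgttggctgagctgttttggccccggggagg
Psme4 (chr11:30771525-30771824, plus strand): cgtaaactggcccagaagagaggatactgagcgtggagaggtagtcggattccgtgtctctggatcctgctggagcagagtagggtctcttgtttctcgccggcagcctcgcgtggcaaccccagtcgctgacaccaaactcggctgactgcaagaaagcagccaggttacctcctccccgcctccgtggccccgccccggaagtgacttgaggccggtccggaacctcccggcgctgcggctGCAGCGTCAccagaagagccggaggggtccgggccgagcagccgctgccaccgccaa
Psmb5 (chr14:54617946-54618245, minus strand): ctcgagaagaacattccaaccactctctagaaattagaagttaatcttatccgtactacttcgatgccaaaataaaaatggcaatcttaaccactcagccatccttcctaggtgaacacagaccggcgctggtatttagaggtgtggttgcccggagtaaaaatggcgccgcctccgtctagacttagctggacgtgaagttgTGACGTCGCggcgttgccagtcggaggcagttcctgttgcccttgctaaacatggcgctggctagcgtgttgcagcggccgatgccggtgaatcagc
Psmb6 (chr11:70525107-70525406, plus strand): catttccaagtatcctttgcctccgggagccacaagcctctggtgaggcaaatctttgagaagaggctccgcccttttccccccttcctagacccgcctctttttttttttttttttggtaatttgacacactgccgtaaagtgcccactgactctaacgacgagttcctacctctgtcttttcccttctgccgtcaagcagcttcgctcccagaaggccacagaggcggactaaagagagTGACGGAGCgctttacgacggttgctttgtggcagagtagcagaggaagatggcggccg

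The element was found in 6 of the 35 members with a window, or 17.1%, against 15% of the 15855 genes of the table with a window and 12.4% of all 32851 windows. It stood at position -31 in Psmd9, -7 in Psme4, -47 in Psmb5 and -9 in Psmb6, counted from the start of transcription to the leftmost base of the match. Psmc6 and Psmd12 had it far from the start, at -227 and -247. These letters were not in the windows of Psmd1, Psmd2 or Psme3, and Psmd3 had no window. A match is a string of letters, and binding was not measured.

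Total counts ranged from 775750 to 14055206 per sample, so that 3 counts, taken as the detection floor, stood for 3.78 CPM in AK 12 and 0.224 CPM in AK 10. These floors cover counting error only. The 8 keratinocyte markers were above 0 in all 4 cSCC. Their summed levels were 18772, 17646, 5383 and 3878 CPM in cSCC 18, 19, 20 and 21. They ran from 7036 to 19613 CPM in NS and from 10030 to 17655 CPM in AK, so cSCC 20 and cSCC 21 were below all NS and AK samples. Heart muscle markers summed to 59781 CPM in cSCC 21, to 79.9, 106 and 174 CPM in cSCC 18, 19 and 20, and to at most 40.2 CPM in NS. Lung epithelium markers summed to 35940 CPM in cSCC 20 and to at most 32.2 CPM in NS. Haemoglobin genes held 46.8% of the counts of cSCC 18, whose TMM factor was 0.509. Results with cSCC are therefore also given with single samples left out and, for part of the genes, without both cSCC 20 and cSCC 21. In bulk tissue fewer cells of a type and less RNA per cell cannot be told apart.

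Per kilobase of annotated transcript, core genes led in NS. The highest levels were 784 ± 213 CPM per kb (SD, n = 8) for Psmb6, a catalytic subunit, 682 ± 158 CPM per kb for Psmb2 and 540 ± 92.2 CPM per kb for Psma1, and these neighbours differed by less than their spread. The lowest of the tested subunit genes were the activator Psme3 at 9.76 ± 1.63 CPM per kb (SD, n = 8), the lid gene Psmd3 at 10.6 ± 2.18 CPM per kb and the chaperone Psmd9 at 10.9 ± 4.92 CPM per kb, which were not apart from each other. Median levels per kb in NS were 208 CPM for the alpha ring, 199 CPM for the beta ring, 131.5 CPM for the ATPases, 113 CPM for the lid and 62.3 CPM for the other base subunits. All 42 genes together summed to 11071 ± 1677 CPM in NS, 12428 ± 953 CPM in AK and 11916 ± 3973 CPM in cSCC (SD over 8, 8 and 4 samples), so the groups differed by less than the spread in NS and cSCC. The transcript with the longest coding sequence was used for length, and another isoform would shift these levels.

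AK vs. NS asks what the precancerous lesion differs in from normal skin, and no proteasome gene passed the call. A call needed an adjusted p-value under 0.05 from edgeR's quasi-likelihood test and a fold change above 1.5 or below 0.67. Of the 40 members 0 were called higher, against 2.26% of the 11677 genes tested, and 0 were called lower, against 2.38%. Unadjusted p-values under 0.05 were found for 7 members, or 17.5%, and for 24.6% of all genes. DESeq2, limma voom and a version of the study's two-sample rule called 0 members too, while 2.43%, 4.46% and 6.65% of all genes were called higher. The fitted changes were small and mostly positive: 29 of the 40 members were above 0, with a median log2 fold change of 0.13 against -0.04 over all genes tested. By role, 7 of 7 tested alpha genes and 5 of 5 activators were positive, with medians of 0.25 and 0.36, while the 3 base subunits without ATPase activity were all below 0, with a median of -0.14. With library size alone as scaling, the median over members was 0.04 and that over all genes was -0.13.

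Psme4, which encodes the activator PA200, was the 1 member whose AK and NS samples did not overlap. Its levels were 129 CPM at the lowest, 143 CPM at the median and 167 CPM at the highest in NS, and 175, 188 and 207 CPM in AK. All 8 AK samples were above all 8 NS samples. The log2 fold change was 0.36 (SE 0.10, edgeR adjusted p = 0.0415), a 1.28-fold difference that stayed below the fold limit. A gene with all AK above all NS was 1 of 40 among the members and 0.394% of all genes tested, and 0 members had all AK below all NS, against 0.128%. The adjusted p ranged from 0.0362 to 0.0881 when each sample was left out in turn and reached 0.318 in the fit of all 20 samples. Among the fits that left out 1 sample it was under 0.05 without NS 6, NS 8 or AK 10, at 0.0428, 0.0406 and 0.0362.

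The 6 other members with an unadjusted p-value under 0.05 were all higher in AK. Psmd14, the deubiquitinase of the lid, had a log2 fold change of 0.42 (edgeR adjusted p = 0.0935), and the alpha gene Psma5 had 0.41 (adjusted p = 0.0942). The chaperones Psmd10 and Psmd5 had 0.37 and 0.27, Psma1 had 0.30, and Psme2, a subunit of the interferon-induced activator PA28, had 0.49 (edgeR adjusted p = 0.19). Psme2b, a near copy of Psme2 on chromosome 11, had 0.46, but the authors' counting may divide reads between these copies, so both values are uncertain. Of the 8 interferon-stimulated markers, 5 were called higher in AK and their summed levels were 523 to 1626 CPM against 156 to 766 CPM in NS. The summed levels of 8 markers of dividing cells were 598 to 1215 CPM in AK and 408 to 1022 CPM in NS, and 1 of the 8 was called. The part of either in the PA28 and core values was not tested.

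cSCC vs. NS asks what the tumor differs in from normal skin, and here 5 proteasome genes rose and 0 fell. They were the base scaffolds Psmd1 and Psmd2, the lid gene Psmd3, the chaperone Psmd9 and the nuclear activator Psme3, and 0 genes of the 20S core were among them. Called higher were 12.5% of the 40 members, near the 11.7% of the 12097 genes tested, so the count itself is no result about proteasome genes. Called lower were 0 members, against 7.65% of all genes. By groups that do not overlap, 3 members were higher in all 4 cSCC, against 2.70% of genes, and 0 were lower in all 4, against 5.73%. The median log2 fold change was 0.29 over members and 0.14 over all genes, but without cSCC 18 it was 0.06 over members, below the 0.14 over all genes, and without both cSCC 20 and cSCC 21 it was 0.41 against -0.06. DESeq2 called 7 members and limma voom 4, while 3 were called with no filter on low counts and 1, Psme3, with library size alone. Of all genes 9.06%, 6.35%, 8.70% and 5.17% were called higher in these runs.

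Within the proteasome, the roles differed in their fitted changes. Of the 20 tested genes of the 19S particle and its chaperones, 19 were positive, 4 were called and the median log2 fold change was 0.40. Of the 14 tested core genes, 7 were positive and 7 negative, 0 were called, 0 had an unadjusted p-value under 0.05 by edgeR, and the median was 0.00. Of all genes tested 56.9% were positive, against 75% of the 40 members. Unadjusted p-values under 0.05 were found for 34.0% of all genes, 20% of the members and 35% of the 19S genes and chaperones. Without cSCC 18, the tumor rich in haemoglobin counts, the medians were 0.21 for the 19S genes and -0.32 for the core, and without both cSCC 20 and cSCC 21 they were 0.58 and 0.22. With library size alone the medians were 0.02 for the 19S genes and -0.39 for the core, as the median over all genes moved to -0.17. The 19S median stayed above that of the core in each of these fits, but the sign of the core median depended on which tumors entered, and the difference between the roles was not tested.

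**Figure D1:**
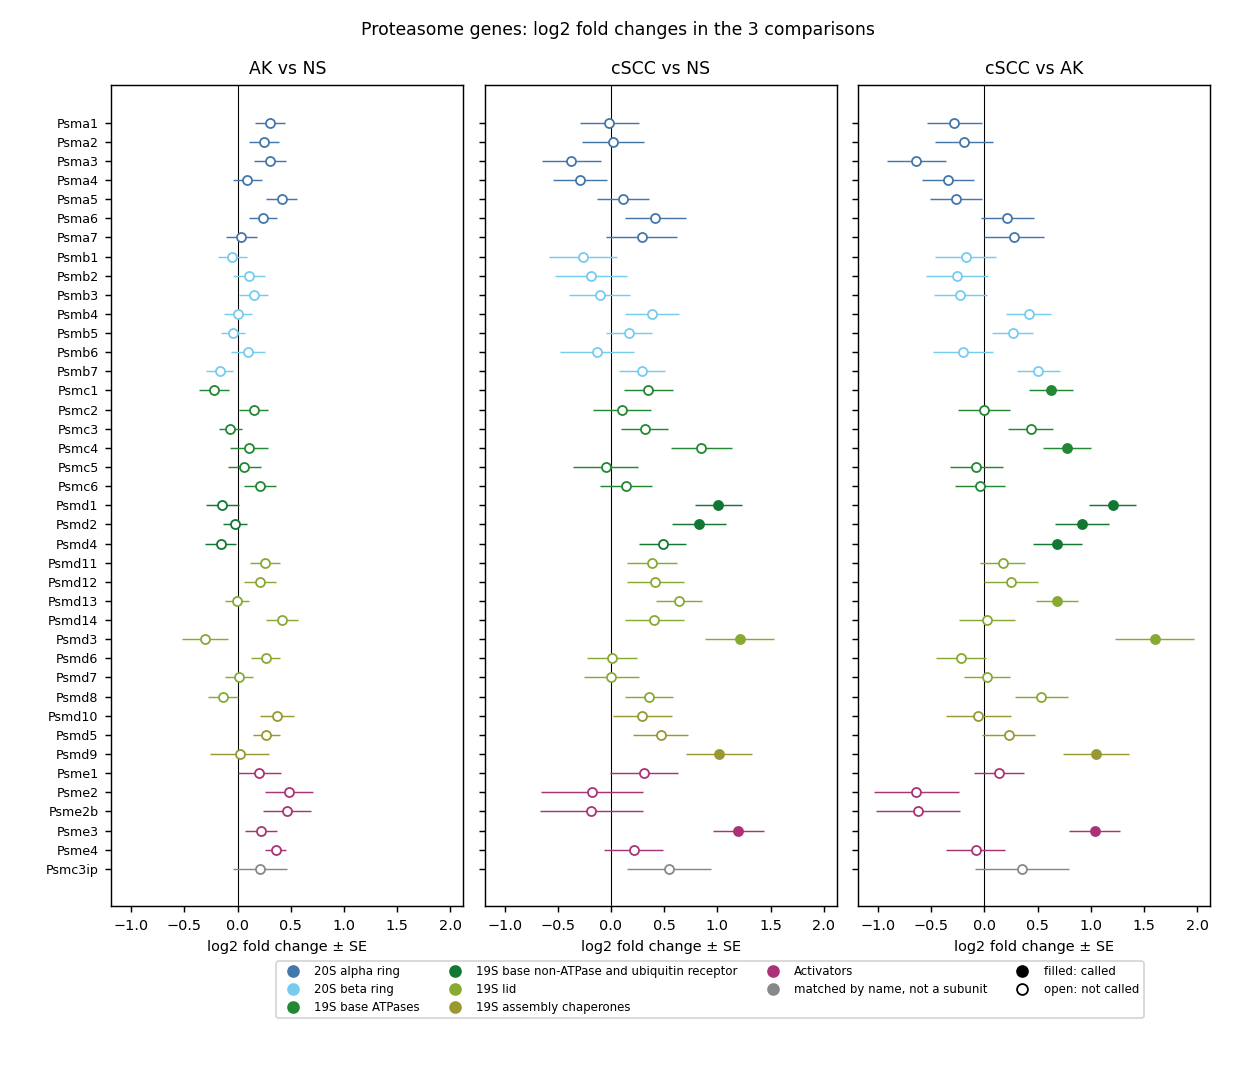
Log2 fold change with its standard error (x axis) of the 40 tested genes (y axis, ordered by role) in the comparisons of AK and of cSCC with NS, and of cSCC with AK. Filled points passed the call: 0, 5 and 9 genes, all of them higher and none of them alpha or beta genes of the core.

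Psmd1 (chr1:86064387-86139151, plus strand), the largest scaffold of the base, had levels from 86.3 to 179 CPM in NS with a median of 127.8 CPM. In AK it ran from 74.8 to 163.5 CPM with a median of 119 CPM. In cSCC it was at 238.9 CPM in cSCC 18, 282.1 CPM in cSCC 19, 191.1 CPM in cSCC 20 and 288.4 CPM in cSCC 21. All 4 tumors were above all NS and AK samples. The log2 fold change was 1.01 (SE 0.22, edgeR adjusted p = 0.00812) against NS and 1.21 (SE 0.22, edgeR adjusted p = 0.00312) against AK. The call held without any single sample in both comparisons, and also without both cSCC 20 and cSCC 21, at 1.03 against NS (edgeR adjusted p = 0.0188). With library size alone it was 0.72 against NS (edgeR adjusted p = 0.0822) and no longer called. Its exons share 553 bases with Gm21972 and Htr2b, and reads of overlapping genes cannot be told apart where the counting strand is not stated.

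Psme3 (chr11:101316213-101323537, plus strand), which encodes PA28 gamma, a nuclear activator that works without ubiquitin, had 17.4 to 31.4 CPM in NS with a median of 26.0 CPM. In AK it ran from 22.2 to 38.9 CPM with a median of 30.6 CPM. The tumors had 64.6, 43.1, 41.0 and 79.6 CPM in cSCC 18, 19, 20 and 21, so that all 4 were above both other groups, with cSCC 20 close to the highest AK. The log2 fold change was 1.20 (SE 0.24, edgeR adjusted p = 0.00574) against NS and 1.04 (SE 0.24, edgeR adjusted p = 0.00867) against AK. Against NS it was called in all 12 fits that left out 1 sample and in all 9 other settings, with edgeR, DESeq2 or voom adjusted p or the study's unadjusted p from 1.79e-04 to 0.0448. Against AK the call was lost without cSCC 21, at 0.71 (edgeR adjusted p = 0.0521), with library size alone, at 0.71 (edgeR adjusted p = 0.0618), and with limma voom, at 0.80 (adjusted p = 0.0638).

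Psmd3 (chr11:98682554-98695979, plus strand), a scaffold of the lid, was at 19.4 to 37.0 CPM in NS and at 9.59 to 39.2 CPM in AK. Its tumor levels were 38.9, 49.2 and 45.5 CPM in cSCC 18, 19 and 20 and 134.5 CPM in cSCC 21. The first of these was above the highest NS sample and below the highest AK sample, and cSCC 21 stood far above the rest. The log2 fold change was 1.21 (SE 0.32, edgeR adjusted p = 0.0198) against NS and 1.60 (SE 0.37, edgeR adjusted p = 0.00878) against AK. Without cSCC 21 it was 0.59 (edgeR adjusted p = 0.13) and 0.85 (adjusted p = 0.0764), and the gene was not called. Without both cSCC 20 and cSCC 21 it was 0.56 (edgeR adjusted p = 0.218) and 0.89 (adjusted p = 0.1155), again not called. With limma voom it was 0.76 (adjusted p = 0.123) against NS and 1.09 (adjusted p = 0.0638) against AK, and with library size alone 0.91 against NS (edgeR adjusted p = 0.103), and these calls were lost too.

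Psmd2 (chr16:20651652-20663414, plus strand), the other large scaffold of the base, ran from 152 to 222 CPM in NS and from 149 to 214 CPM in AK. The tumors were at 229, 398, 187 and 459 CPM in cSCC 18, 19, 20 and 21, so cSCC 20 lay within normal skin. The log2 fold change was 0.83 (SE 0.26, edgeR adjusted p = 0.0369) against NS and 0.92 (SE 0.25, edgeR adjusted p = 0.0184) against AK. Against NS the call was lost without any 1 of the 8 NS samples and without cSCC 19 or cSCC 21, at 0.58 to 0.86 (edgeR adjusted p from 0.0507 to 0.113). Against AK it was lost without AK 12, at 0.74 (edgeR adjusted p = 0.0544), or cSCC 21, at 0.56 (edgeR adjusted p = 0.0954). Without both cSCC 20 and cSCC 21, Psmd2 had 0.78 against NS (edgeR adjusted p = 0.0562), not called. Against AK it then had 0.83 (edgeR adjusted p = 0.0277) and was called. Library size alone, no filter on low counts and limma voom each ended both calls, at 0.56 to 0.78 against NS and 0.61 to 0.69 against AK.

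Psmd9 (chr5:123169413-123250131, plus strand), a chaperone in assembly of the ATPase ring, was at 52.1, 52.7, 66.0 and 52.6 CPM in the tumors. The highest was cSCC 20, the sample with the fewest total counts, where 3 counts stood for 3.41 CPM. Normal skin ran from 15.5 to 56.3 CPM with a median of 23.7 CPM, and AK from 14.4 to 40.6 CPM with a median of 32.3 CPM. The tumors were all above AK, and only cSCC 20 was above the highest NS sample. The log2 fold change was 1.02 (SE 0.31, edgeR adjusted p = 0.0343) against NS and 1.05 (SE 0.31, edgeR adjusted p = 0.024) against AK. Leaving out NS 2, 4, 5, 6 or 9 or cSCC 19, 20 or 21 ended the call against NS, with changes of 0.91 to 1.04 (edgeR adjusted p from 0.055 to 0.0772), and leaving out AK 12 or cSCC 20 or 21 ended that against AK, at 0.85 to 0.97 (0.0541 to 0.0616). Library size alone, at 0.75 and 0.82, and no filter on low counts, at 0.97 and 0.85, also ended both calls, and limma voom ended that against AK, at 1.06 (adjusted p = 0.118). Without both cSCC 20 and cSCC 21 the changes of Psmd9 were 0.89 against NS (edgeR adjusted p = 0.1495) and 0.90 against AK (adjusted p = 0.137), not called. Of its exons 1849 bases lie opposite Gm26745, so its count is uncertain.

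**Figure D2:**
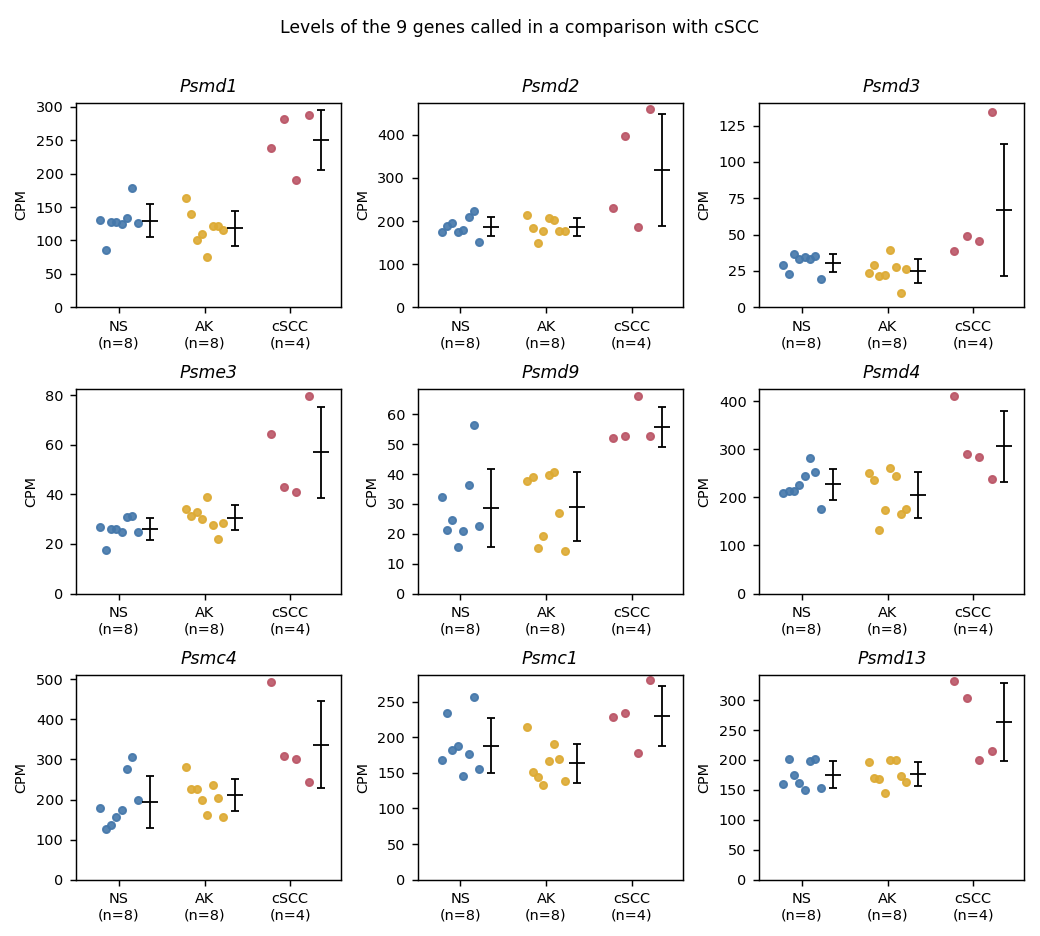
CPM (y axis) of the 9 genes called in cSCC vs. NS or cSCC vs. AK in each sample (points) by group, with the mean and SD at the right of each group. Psmd1 and Psme3 have all 4 cSCC above all NS and AK samples, and Psmd3 has 1 cSCC at 134.5 CPM.

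cSCC vs. AK asks what changes between the precancerous lesion and the tumor, and 9 proteasome genes rose and 0 fell. Psmd1, Psmd2, Psmd3, Psmd9 and Psme3 were called again, in a comparison that shares the 4 cSCC samples with the one above, and Psmd4, Psmd13, Psmc1 and Psmc4 joined them. Called higher were 22.5% of the members, against 16% of the 12032 genes tested, and called lower were 0, against 8.34%. All 4 cSCC were above all AK for 4 members, Psmd1, Psmd9, Psmd13 and Psme3, against 3.33% of genes, and below all AK for 0, against 6.84%. Of 20 genes of the 19S particle and its chaperones 8 were called and the median log2 fold change was 0.34, while 0 of 14 core genes were called and their median was -0.20. The median over all 40 members was 0.16, against 0.17 over all genes.

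Psmd4, a ubiquitin receptor of the base, was at 132 to 260.5 CPM in AK and at 411.9, 290.0, 284.4 and 237.3 CPM in cSCC 18, 19, 20 and 21. Its groups overlapped through cSCC 21, and the log2 fold change was 0.69 (SE 0.23, edgeR adjusted p = 0.0423). Each of the 12 fits that left out 1 sample lost this call, with adjusted p from 0.0509 to 0.184 and the lowest value, 0.44, without cSCC 18. Psmd13, a lid subunit, was at 144.5 to 200.2 CPM in AK and at 332.7, 303.2, 200.2 and 215 CPM in the tumors, so cSCC 20 was level with the highest AK at this rounding. Its log2 fold change was 0.68 (SE 0.20, edgeR adjusted p = 0.022), and the call was lost without AK 12, AK 14, cSCC 18 or cSCC 19, at 0.48 to 0.61 (edgeR adjusted p from 0.0565 to 0.0946). Of its exons 342 bases lie opposite Sirt3.

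Among the ATPases, Psmc4 and Psmc1 passed the call. Psmc4 was at 156 to 280.5 CPM in AK and at 492.5, 309.8, 301.5 and 244.9 CPM in cSCC 18, 19, 20 and 21, with overlap through cSCC 21 and a log2 fold change of 0.78 (SE 0.23, edgeR adjusted p = 0.0226). The call was lost without AK 12, AK 14 or cSCC 18, at 0.48 to 0.70 (edgeR adjusted p from 0.0679 to 0.125). Psmc1 was at 132.5 to 214 CPM in AK and at 228.5, 234.6, 177.5 and 280 CPM in the tumors, with overlap through cSCC 20 and a log2 fold change of 0.63 (SE 0.21, edgeR adjusted p = 0.0404). That call was kept in the fits without AK 10 or cSCC 20 and lost without any other sample of the comparison, at 0.40 to 0.66 (edgeR adjusted p from 0.0516 to 0.178). Against NS, Psmc4 had 0.85 (edgeR adjusted p = 0.0522), Psmd13 0.64 (adjusted p = 0.0525), Psmd4 0.48 (adjusted p = 0.142) and Psmc1 0.35 (adjusted p = 0.299), none of them called. Library size alone and no filter on low counts each ended the calls of Psmd4, Psmd13, Psmc4 and Psmc1 against AK, at 0.36 to 0.61. Without both cSCC 20 and cSCC 21, Psmd4, Psmd13 and Psmc4 stayed called against AK, at 0.84, 0.91 and 0.99. Psmc1 was then at 0.57 (edgeR adjusted p = 0.09325) and not called.

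With all samples in, the other ATPases, lid genes and chaperones were not called by edgeR in any comparison. In cSCC vs. NS, Psmc5 had the lowest log2 fold change of the ATPases, -0.05 (SE 0.31, edgeR adjusted p = 0.928), and Psmd7 the lowest of the lid, 0.00 (SE 0.26, edgeR adjusted p = 0.995). Psmc5 averaged 333 ± 89.9 CPM in NS (SD, n = 8) against 352 ± 40.8 CPM in the 8 AK and 310.4 ± 146 CPM in the 4 cSCC, where cSCC 18 had 527.9 CPM and the others 226 to 260 CPM. Psmd7, a partner of the lid deubiquitinase, averaged 331 ± 60.1 CPM in NS (SD, n = 8), while AK had 338 ± 37.5 CPM (n = 8) and the tumors 319.5 ± 100.5 CPM (n = 4). They comprise also Psmc2, Psmc3, Psmc6, Psmd5, Psmd6, Psmd8, Psmd11, Psmd12 and Psmd14, for which the fitted log2 changes lay between -0.22 and 0.54. The lowest among the chaperones in cSCC vs. NS was Psmd10, the oncoprotein gankyrin, at 0.30 (SE 0.28, edgeR adjusted p = 0.489), with tumors at 154.9, 107.7, 109.2 and 40.9 CPM.

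In the core, cSCC 18 stood above the mean of normal skin and the other tumors were mostly below it, and without cSCC 18 the median log2 fold change was -0.32. In the alpha ring the log2 fold changes of cSCC vs. NS ran from -0.37 for Psma3 (SE 0.28, edgeR adjusted p = 0.37) to 0.42 for Psma6 (SE 0.29, edgeR adjusted p = 0.326). Psma3 was at 429, 362, 238 and 171 CPM in cSCC 18, 19, 20 and 21 against 320 to 538.5 CPM in NS and 388.5 to 735 CPM in AK. Psma6 was at 779, 461, 425.5 and 271 CPM in the same tumors against 300.1 to 508 CPM in NS. In both genes cSCC 18 was the highest tumor and cSCC 21 the lowest. In the beta ring the range was from -0.26 for Psmb1 (SE 0.32, edgeR adjusted p = 0.605) to 0.38 for Psmb4 (SE 0.25, edgeR adjusted p = 0.307), and Psmb1 was at 745, 224, 363 and 308 CPM in the tumors against 401.5 to 678 CPM in NS.

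The constitutive catalytic subunits Psmb5, Psmb6 and Psmb7 did not pass the call in any comparison. Psmb5, the chymotrypsin-like site, averaged 148 ± 22.1 CPM in NS, 145 ± 13.7 CPM in AK and 160 ± 30.4 CPM in cSCC (SD over 8, 8 and 4 samples), with a log2 fold change of 0.17 (edgeR adjusted p = 0.617) for cSCC vs. NS. Psmb6, the caspase-like site, averaged 757 ± 206, 820 ± 78.9 and 667 ± 360.5 CPM in NS, AK and cSCC, with -0.13 (edgeR adjusted p = 0.825). Psmb7, the trypsin-like site, averaged 206 ± 30.2, 185 ± 27.8 and 242 ± 52.8 CPM, with 0.29 (edgeR adjusted p = 0.377), and 405 bases of its exons lie opposite Nek6. The differences between cSCC and NS were within the spread of the cSCC group, and against AK Psmb7 had 0.51 (edgeR adjusted p = 0.0817).

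Which genes were called in cSCC vs. AK depended on single samples. Without cSCC 18, 13 members were called, 5 higher and 8 lower. Of all 12734 genes tested in that fit 3994 were called, and 2330 of them, or 18.3% of the genes, were higher. The 8 lower genes were Psma3, Psma4, Psmb1, Psmb2, Psmb3, Psmb6, Psme2 and Psme2b, and the higher ones were Psmd1, Psmd2, Psmd3, Psmd9 and Psme3. The core median was then -0.61, that of the 19S genes and chaperones 0.16 and that of all members -0.17, against 0.11 over all genes. Without cSCC 21 the count was 3, without AK 12 it was 3 and without AK 14 it was 5, all higher. Of all genes 6.90%, 11.15% and 11.52% were called higher in these fits. Without both cSCC 20 and cSCC 21, 7 members were called, 6 higher and Psme4 lower. Of all 12567 genes tested in that fit 1584 were called, and 843 of them, or 6.71% of the genes, were higher. The medians were 0.02 for the core and 0.50 for the 19S genes, against -0.01 over all genes. With library size alone 5 were called, Psmd1 and Psmd3 higher and Psma3, Psma4 and Psme2 lower. Of all 12032 genes 2377 were called with this scaling, and 1021 of them, or 8.49% of the genes, were higher.

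**Figure D3:**
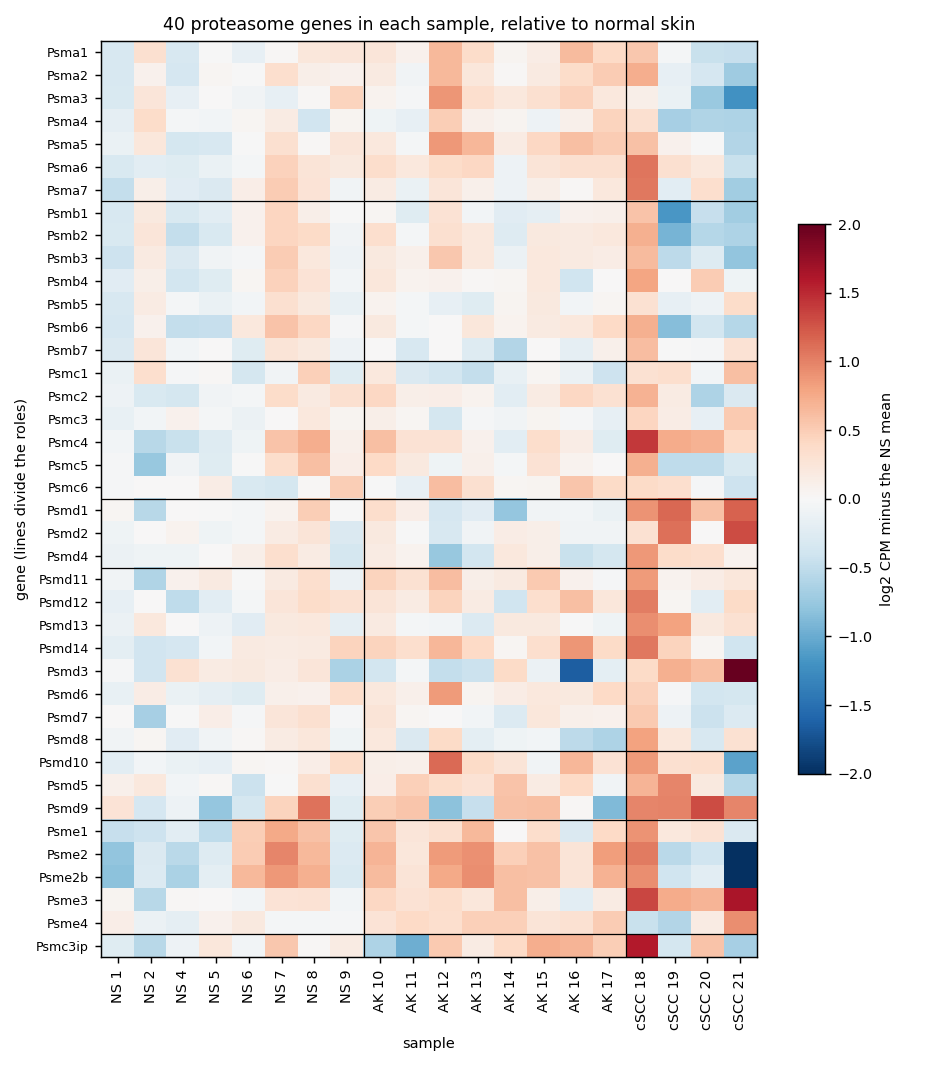
Log2 CPM of the 40 tested genes (rows, in order of role) in each sample (columns), relative to the mean of the 8 NS samples. cSCC 18 is above normal skin for all genes but Psme4, while cSCC 19, 20 and 21 are mostly below it in the core rows and above it for Psmd1 and Psme3.

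The balance of the 19S particle and the core within a sample does not depend on the scaling between samples. It was chosen as a measure after the values were seen and is given as a description. The mean log2 CPM of the 17 cap genes minus that of the 14 core genes was -0.78 in NS (SD 0.20, n = 8) and slightly lower, -0.88, in AK (SD 0.17, n = 8). In the tumors it was -0.70 in cSCC 18, -0.11 in cSCC 19, -0.58 in cSCC 20 and 0.03 in cSCC 21. The range in NS was from -1.16 to -0.56, so cSCC 18 and cSCC 20 lay within normal skin and the 2 other tumors above it. The difference was widest for Psmd1, Psmd2 and Psmd4, which stood at -1.03 (SD 0.24, n = 8) in normal skin, at -1.28 (SD 0.32, n = 8) in the keratoses and at -0.25 (SD 0.59, n = 4) in the tumors. There cSCC 18 at -0.96 was within the NS range of -1.41 to -0.77, and cSCC 20 at -0.51, cSCC 19 at 0.16 and cSCC 21 at 0.32 were above it. The 8 heart muscle markers summed to 59781 CPM in cSCC 21 and to 106 CPM in cSCC 19, against at most 40.2 CPM in NS and 80.7 CPM in AK. The part of other tissue in the balance was not tested.

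**Figure D4:**
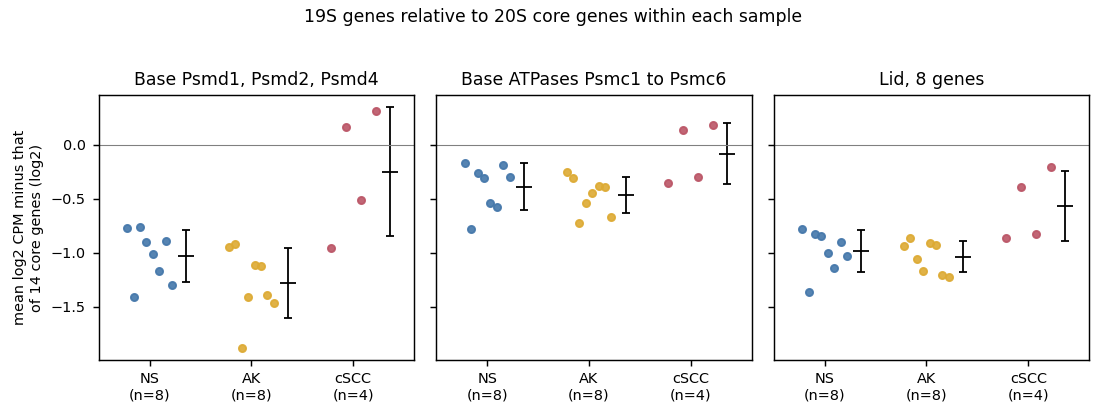
Mean log2 CPM of 3 sets of 19S genes minus that of the 14 core genes in each sample (points), with the mean and SD at the right of each group (y axis in log2 units). In each panel cSCC 19 and cSCC 21 lie above all NS and AK samples.

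The 5 genes called in cSCC vs. NS had longer transcripts than most members, from 2634 to 3112 bases with a median of 2894 bases, against a median of 1581 bases for the 35 others. The 9 called in cSCC vs. AK ran from 1591 to 3112 bases, with a median of 2634 bases against 1515 bases for the 31 others. Across the 40 members the correlation of the log2 fold change with log2 length was r = 0.43 in cSCC vs. NS and r = 0.40 in cSCC vs. AK, while over all genes with a length it was -0.07 over 11649 genes and -0.09 over 11580. Genes share libraries and are not independent, and no test was made. GC content had r = -0.41 among members and r = -0.37 among 11239 genes in AK vs. NS, and r = 0.34 and 0.30 in cSCC vs. AK. The part of transcript length or GC content in the called changes was not tested.

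Among the activators the PA28 alpha and beta genes did not follow Psme3. Psme1 averaged 185 ± 70.1 CPM in NS, 216 ± 41.5 CPM in AK and 221 ± 76.7 CPM in cSCC (SD over 8, 8 and 4 samples), with a log2 fold change of 0.31 (edgeR adjusted p = 0.527) in cSCC vs. NS. Psme2 was at 612.6, 206, 226 and 70.1 CPM in cSCC 18, 19, 20 and 21, against 172 to 586.5 CPM in NS and 347 to 557 CPM in AK, so that cSCC 21 was below and cSCC 18 above all other samples. Its log2 fold change was -0.18 (SE 0.48, edgeR adjusted p = 0.834), and Psme2b, with -0.19, was the lowest activator. The log2 ratio of Psme2 to Psme1 within a sample averaged 0.77 (SD 0.23, n = 8) for normal skin, 1.09 (SD 0.20, n = 8) for the keratoses and -0.00 (SD 0.79, n = 4) for the tumors. That mean lies between opposite extremes, 0.91 in cSCC 18 and -1.02 in cSCC 21, with 0.02 in cSCC 19 and 0.08 in cSCC 20. Psme4 was at 107, 96.7, 163.8 and 277 CPM in the tumors, 2 of them below all NS, and its log2 fold change was 0.21 (SE 0.28, edgeR adjusted p = 0.624). Psmc3ip, the gene outside the proteasome, had 0.55 (SE 0.40, edgeR adjusted p = 0.356).

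Interferon replaces Psmb5, Psmb6 and Psmb7 by Psmb8, Psmb9 and Psmb10 in new proteasomes. The log2 ratio of Psmb8 to Psmb5 averaged 0.52 (SD 0.83, n = 8) for normal skin, 1.34 (SD 0.47, n = 8) for the keratoses and 0.09 (SD 1.62, n = 4) for the tumors, of which cSCC 21 had -2.28. AK was higher than NS by 0.82 (two-sided exact permutation test, p = 0.0292, adjusted p = 0.132 over the 9 ratio tests), with 2 AK samples above all NS. The ratio of Psmb10 to Psmb7 was -2.32 ± 0.44 in NS and -1.56 ± 0.26 in cSCC, a difference of 0.76 with 3 of 4 tumors above all NS (two-sided exact permutation test, p = 0.0121, adjusted p = 0.109). Neither passed the adjustment. The ratio of Psmb9 to Psmb6 differed by 0.21 between AK and NS (two-sided exact permutation test, p = 0.44). As single genes, Psmb10 was called higher in cSCC vs. NS, at 0.97 (SE 0.31, edgeR adjusted p = 0.039), while Psmb8 and Psmb9 had -0.09 and -0.23 (edgeR adjusted p = 0.933 and 0.78). The call of Psmb10 was lost without NS 1, 2, 4, 5, 6 or 9 or cSCC 18, 19 or 20, at 0.76 to 1.01 (edgeR adjusted p from 0.0522 to 0.0989). It was kept in 4 of 9 other settings. Library size alone, at 0.64 (edgeR adjusted p = 0.16), no filter, limma voom, all 20 samples in 1 fit and leaving out cSCC 20 and 21 ended it. Exons of Psmb8 and Psmb9 overlap genes on the opposite strand, Gm20496 and Tap1.

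**Figure D5:**
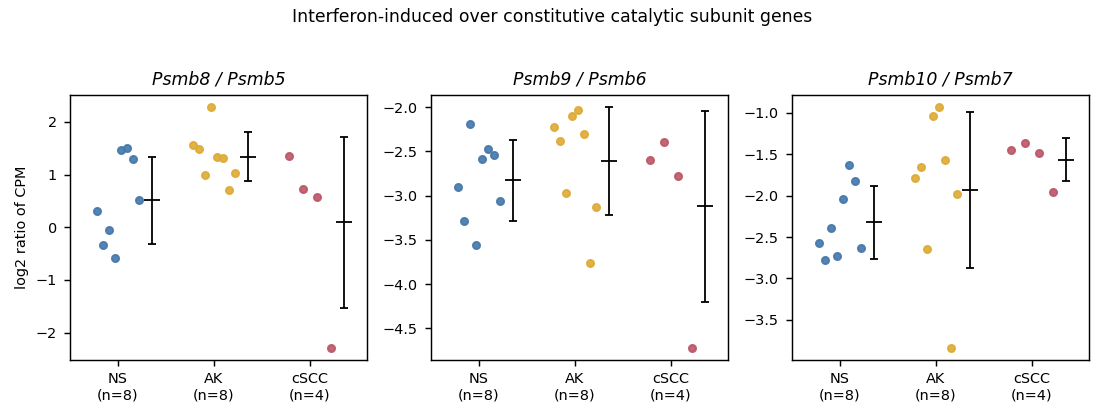
Log2 ratio of the interferon-induced to the constitutive catalytic gene (y axis) in each sample (points) for the 3 pairs, with the mean and SD at the right of each group. AK averages 1.34 against 0.52 in NS for Psmb8 over Psmb5, and cSCC 21 is the lowest sample in the first 2 panels.

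Of 27 related genes of assembly, ubiquitin supply and control of proteasome genes, 0 were called in AK vs. NS, where 6 had an unadjusted p-value under 0.05 by edgeR. In cSCC vs. NS 4 were called higher and 2 lower, and in cSCC vs. AK 3 higher and 1 lower, with medians of 0.10 and 0.25 against 0.14 and 0.17 over all genes. These are 14.8% and 11.1% called higher, against 11.7% and 16% of all genes, and 2 and 1 of 27 lower, against 7.65% and 8.34%, so the counts are near or below the background. Adrm1, a ubiquitin receptor of the 19S base that the name rule does not take, was at 16.6 to 34.7 CPM in NS, 10.8 to 26.5 CPM in AK and 46.5, 78.2, 41.0 and 101.1 CPM in the tumors. All 4 tumors were above both other groups in Adrm1, a call kept in every alternative run, and the log2 fold change was 1.44 (SE 0.28, edgeR adjusted p = 0.00486) against NS and 1.77 (SE 0.30, edgeR adjusted p = 0.00248) against AK. Shfm1, another gene among the subunits and partners outside the name rule, went the other way. Its levels were 304.5 to 564.9 CPM in NS, 236.7 to 476.1 CPM in AK and 152.8 to 398 CPM in cSCC. The log2 fold change of Shfm1 was -0.86 (SE 0.31, edgeR adjusted p = 0.0699) against NS and -0.35 (SE 0.28, edgeR adjusted p = 0.385) against AK, not called. The polyubiquitin gene Ubb, at 0.52 (edgeR adjusted p = 0.33) against NS, was not called.

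The segregase Vcp rose by 0.82 (edgeR adjusted p = 0.0424) against NS and 0.88 (edgeR adjusted p = 0.025) against AK, with cSCC 21 at 413 CPM and the other tumors at 158 to 206 CPM, and 352 bases of its exons lie opposite 1700022I11Rik. Without cSCC 21 the changes were 0.41 (edgeR adjusted p = 0.189) and 0.35 (edgeR adjusted p = 0.207), and the calls of Vcp were also lost without cSCC 20 or any 1 NS sample (0.0515 to 0.0745), or without AK 12 or AK 14 (0.0691 and 0.0556). Without both cSCC 20 and cSCC 21 they were 0.29 (edgeR adjusted p = 0.416) and 0.31 (adjusted p = 0.321). Library size alone, no filter on low counts and limma voom each ended both calls of Vcp too. Psmf1, an inhibitor of the core, rose by 0.87 against AK (edgeR adjusted p = 0.0466), a call lost without AK 11, 12, 13, 14, 15 or 17 or cSCC 18 or 21, at 0.57 to 0.85 (edgeR adjusted p from 0.0653 to 0.183). It was kept in 4 of 9 other settings. The ubiquitin shuttle Ubqln1 fell by 1.12 against NS (edgeR adjusted p = 0.0104) and by 1.08 against AK (edgeR adjusted p = 0.00943), with tumors at 40.2 to 98.4 CPM and normal skin at 114.8 to 188 CPM, and both calls were lost when cSCC 20 and cSCC 21 were left out together (edgeR adjusted p = 0.0545 and 0.0597).

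Genes that control the subunit genes did not move together in cSCC vs. NS. Nfe2l2, the regulator of the antioxidant response, rose by 1.11 (SE 0.31, edgeR adjusted p = 0.0241), with cSCC 19 at 537 CPM and cSCC 21 at 132 CPM, the median of normal skin, and without cSCC 19 it had 0.59 (edgeR adjusted p = 0.145). With library size alone it had 0.91 (edgeR adjusted p = 0.11) and was not called. Nfe2l1 had 0.55 (SE 0.42, edgeR adjusted p = 0.377), with 235.5 CPM in cSCC 21 and 35.2 to 67.1 CPM in the other tumors, against 44.9 to 93.4 CPM in NS. Ddi2, the protease that activates Nfe2l1, fell by 1.27 (SE 0.32, edgeR adjusted p = 0.015) to 25.7, 29.0, 27.3 and 47.6 CPM, all of them below the lowest NS sample at 50.4 CPM. Of the exon bases of Ddi2, 1749 are shared with Rsc1a1 on the same strand, so its count is uncertain. Pomp, the maturation factor of the core, had -0.50 (edgeR adjusted p = 0.304). Endothelial markers summed to 104 to 518.5 CPM in the tumors against 29.9 to 104 CPM in NS, and 5 of 6 were called higher, and the part of that and of the heart and lung genes in the values of cSCC was not tested.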

How the data were processed

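RNA-seq of 8 NS, 8 AK and 4 cSCC mouse skin tissues was used, with groups from the sample titles. The authors deposited raw counts per gene symbol without normalization. Per the paper, reads were trimmed with Trimmomatic, aligned to GRCm38 with HISAT2 and quantified with StringTie, whereas the submitters' processing notes name Trimmomatic 0.36, HISAT2 2.0.5 and featureCounts 1.5.2 and list the builds mm9 and hg19. The strand used in counting is not given in the sources used here. Of the 22090 genes 18160 had a count, and the counts of replicates differed beyond sampling noise in all 62 pairs within groups (smallest chi-square per degree of freedom 11.3).

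CPM used TMM factors over all samples. Groups were compared 2 at a time in edgeR 4.0.16 (R 4.3.3), with filterByExpr, the quasi-likelihood test and Benjamini-Hochberg adjustment over all genes tested, after the script was tested on simulated data. A call needed an adjusted p-value under 0.05 and the study's fold limits, above 1.5 or below 0.67. The study's own rule used a two-sample test of equal variances gene by gene, without adjustment. Here it was applied to log2(CPM + 1) after filterByExpr and TMM factors. The paper does not state these choices, so the runs named after the study's rule approximate it. Ratios of catalytic genes were compared by two-sided exact permutation with Python 3.11.15 and scipy 1.17.1. Alternatives were DESeq2 1.42.0, limma 3.58.1 voom with sample weights, median-of-ratios factors, library size alone, no filter on low counts, no fold limit, the study's rule, all 20 samples in 1 fit, each sample left out, and cSCC 20 and 21 left out together. Library size alone without haemoglobin genes, and all alternatives for the related genes, were chosen after seeing the data. Coordinates, lengths and overlaps are from GENCODE M21 on GRCm38, and promoter windows from RefSeq on GRCm38.p6.

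The members, role groups and related list were chosen with earlier results of these data known. Named are members called in a comparison, the highest and lowest of each role in cSCC vs. NS, the catalytic and activator genes, and Psmb8, Psmb9, Psmb10, Pomp, Nfe2l1, Ubb and called genes of the related list. Some genes of the related list are not reported here. Members with an unadjusted p-value under 0.05 in AK vs. NS, and Shfm1 of the related list, were named after their values were seen.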

Additional observations from a re-analysis of the deposited data

Results flagged for a closer look

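In 153 groups of 4 to 8 samples, 14 had a sample set apart from the others by its gap to the nearest one, and chance alone sets apart about 1 in 20 groups. Of the cSCC group, cSCC 18 was the highest sample for Psmb2 at 933.5 CPM, Psma4 at 343.8 CPM, Psmd11 at 300.8 CPM and Psmc5 at 527.9 CPM. cSCC 20 was the highest for Psmd9 at 65.99 CPM, and cSCC 21 was the highest for Psmd3 at 134.5 CPM. In cSCC 21 the log2 difference between Psme3 and Psme1 was the highest of its group at -0.8417, and that between Psmb9 and Psmb6 was the lowest at -4.717. In the AK group, AK 12 was the highest sample for Psmd6 at 538.6 CPM, Psmb3 at 369.5 CPM and Psma3 at 735.3 CPM, AK 16 the lowest for Psmb4 at 199 CPM and AK 14 the lowest for Psma6 at 345.3 CPM. In normal skin, NS 2 was the lowest sample for Psmd7 at 205.4 CPM.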

How the results depend on the processing

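In AK vs. NS the count of called members was 0 in 24 of 25 alternatives and 1, Psme4, with no fold limit. The fit of all 20 samples called only 9 of 12847 genes, 5 of them higher. Across the fits that left out 1 sample, from 0.737% (without NS 4) to 3.70% (without NS 8) of all genes were called higher. Where so few genes were called, a count of 0 among the members was likely in advance and says little about proteasome genes. In cSCC vs. NS the 5 called became 1 with library size alone, 3 with no filter on low counts, 3 with library size alone without haemoglobin genes and 3 to 5 when 1 sample was left out, with 3 without NS 2, 4, 5, 6 or 9 or cSCC 19. With all samples in, these settings called 5.17%, 8.70% and 8.63% of all genes higher. The fits that left out 1 sample called from 6.97% (without cSCC 21) to 14.96% (without cSCC 18) of all genes higher. In cSCC vs. AK the 9 called became 5 with library size alone, 3 with no filter, 3 with limma voom, 5 with library size alone without haemoglobin genes and 3 to 13 when 1 sample was left out. These settings with all samples in called 8.49%, 10.3%, 6.03% and 12.9% of all genes higher. Leaving out 1 sample gave from 6.90% (without cSCC 21) to 18.3% (without cSCC 18) of all genes called higher. Without cSCC 20 and 21, 4 were called against NS and 7 against AK, while 5.74% and 6.71% of all genes were called higher. Against NS that fit lost Psmd2, Psmd3 and Psmd9 and gained Psmd5 and Psmd13. Against AK it lost Psmd3, Psmd9 and Psmc1 and gained Psme4 as lower, where 843 of the 1584 calls over all genes were higher. Library size alone moved the share of higher among all calls, with 625 of 1957 in cSCC vs. NS and 1021 of 2377 in cSCC vs. AK, against 1414 higher and 926 lower, and 1931 higher and 1004 lower, with TMM factors. Of 528 pairs of a fold change, of a called member, a called related gene or Psme4 in AK, and an alternative, 378 kept their side of the call, 150 lost it and 0 reversed. Psme4 was not called and stayed under the fold limit throughout, at log2 changes of 0.26 to 0.39, so all its pairs count as kept. The causes were not tested. No paired analysis was possible because the groups share no replicate numbers. A level under 3 counts could not be seen, up to 3.78 CPM.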
